A study of Homo sapiens with 6 samples.

Results

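The genes described are 10 genes of microRNA (miRNA) processing and silencing, out of 58174 genes in the deposited table: DROSHA, DGCR8, XPO5, DICER1, TARBP2, AGO1, AGO2, AGO3, AGO4 and TNRC6A. They were chosen by name, for their known place in the pathway, and all 10 were found and passed the filter on low values, a mean of at least 0.5 FPKM (sequenced fragments scaled to gene length and library size) over the 6 libraries. The libraries are polyA mRNA-seq of KNS42, an established cell line from a pediatric glioblastoma (GBM). Cells carried either a control siRNA (siC, n = 3) or an siRNA pool against MSI1 (siMSI1, n = 3), and both groups were transfected and harvested 72 h later. The labels do not say whether libraries of a group came from separate transfections, so p-values measure the spread between these libraries, which may be technical. In bulk RNA, fewer cells of a type and less RNA per cell cannot be told apart. These libraries hold no other reagent against MSI1, so loss of MSI1 and other effects of the pool cannot be told apart either. The study asked whether the RNA-binding protein MSI1 shields mRNAs such as CD44 from miRNA-dependent decay. The 10 genes make miRNAs, bring them to mRNAs or link them to deadenylation and decapping enzymes, which are not among the 10.

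In the canonical pathway, the nuclear ribonuclease DROSHA with its RNA-binding partner DGCR8 (together the Microprocessor) cuts hairpins out of primary transcripts, and exportin-5 (XPO5) carries the hairpins to the cytoplasm. There DICER1 with TARBP2 cuts them to short duplexes, and 1 strand is loaded onto an Argonaute protein (AGO1 to AGO4). Argonaute pairs the miRNA with sites in 3′UTRs, and the scaffold TNRC6A (GW182) links it to deadenylation and decapping enzymes that degrade the mRNA.

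MSI1 was at 64.2 ± 2.53 FPKM in siC and at 11.8 ± 0.575 FPKM in siMSI1 (SD, n = 3 each), which is 18.5% of the siC level, or -2.43 on the log2 scale, with an adjusted p of 8.7e-06 by limma. The libraries held 13087025 to 18024080 reads on genes, recovered from the FPKM values. Libraries of 1 group differed in how their deviations from the group mean followed the GC content of the genes (Spearman's rho across genes from -0.54 in siC replicate 2 to 0.56 in siMSI1 replicate 3). With a correction for GC content, AGO4 remained past the threshold used below (adjusted p = 0.0036 from limma) and TARBP2 passed it as well. Of 5 neural and glial markers, VIM, SOX2, NES and GFAP passed the filter and OLIG2 had 0 reads in all libraries. Of 7 markers of other cell types none passed it, with at most 16 reads in any library. GFAP rose (log2 fold change 1.46, adjusted p = 0.000905 from limma), while VIM (-0.26, adjusted p = 0.038), SOX2 (-0.23, adjusted p = 0.053) and NES (-0.16, adjusted p = 0.094) did not pass the threshold. None of the 4 overlapped between the groups, and 42.8% of all tested genes did not overlap either.

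Between siMSI1 and siC, AGO4 was the only one of the 10 genes past the threshold, an adjusted p of 0.01 (limma on log2(FPKM + 0.1), Benjamini-Hochberg over 15069 tested genes). The study also used 0.01, but on false discovery rates from edgeR, which were not used here. AGO4 rose to 154% of its siC level. With 1 of 10 genes called, the share was close to that of all tested genes, of which 11.0% were called, 5.15% higher and 5.83% lower. At an adjusted p of 0.05 the count was 3 of 10, with AGO4 and TNRC6A higher and AGO2 lower, against 25.1% of all tested genes. The same 3 genes passed 0.01 with limma's voom on the recovered reads, against 2855 of all 15069 tested genes. The values of siMSI1 and siC did not overlap for 7 of the 10 genes, against 42.8% of all tested genes. The median log2 fold change of the 10 genes was 0.06, with 6 above and 4 below 0, and that of all tested genes was 0.00. The median size of the change, regardless of direction, was 0.20 for the 10 genes and 0.24 for all tested genes.

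**Figure D1:**
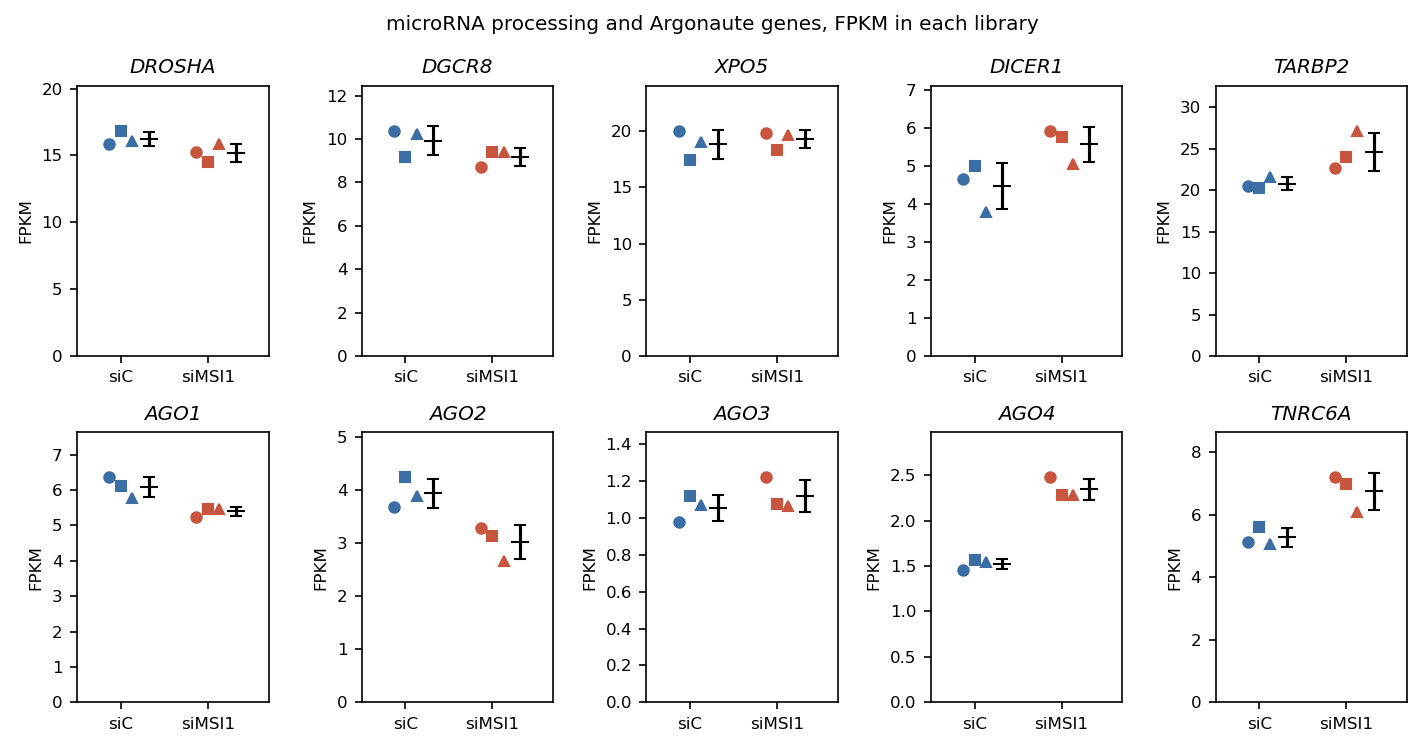
FPKM of each gene (vertical axes, from 0) in the 3 siC libraries (blue) and the 3 siMSI1 libraries (red). Circles, squares and triangles are replicates 1, 2 and 3, and the black bar is the mean with its SD. AGO4 lies at 1.46 to 1.57 FPKM in siC and at 2.28 to 2.47 FPKM in siMSI1.

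Neither gene of the nuclear step passed the threshold. DROSHA was at 15.8, 16.8 and 16.1 FPKM in siC replicates 1 to 3 and at 15.2, 14.5 and 15.8 FPKM in siMSI1. The groups came close without overlapping, and the log2 fold change was -0.10 (95% confidence interval from -0.25 to 0.06, adjusted p = 0.32 from limma). DGCR8, the subunit that recognizes the hairpin together with DROSHA, measured 10.4, 9.17 and 10.2 FPKM in the siC libraries and 8.71, 9.40 and 9.41 FPKM in the siMSI1 libraries. These groups overlapped, and the log2 fold change was -0.11 (interval from -0.29 to 0.07, adjusted p = 0.35). Within a library, the ratio of DROSHA to DGCR8 is free of the scaling of that library. Its log2 value was 0.71 ± 0.14 in siC and 0.73 ± 0.091 in siMSI1 (SD, n = 3 each), a difference of 0.014 that was smaller than the SD of either group (exact permutation test, two-sided, p = 0.9).

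The Microprocessor is known to cut its own DGCR8 mRNA, since hairpins lie within an exon of that mRNA. In RefSeq (GRCh38.p14) these are MIR3618 and MIR1306 on the plus strand of chromosome 22, and their mature miRNAs lie inside exons of the canonical DGCR8 transcript, at chr22:20085797-20085818 for miR-3618 and chr22:20086072-20086093 and chr22:20086112-20086129 for both arms of miR-1306. They are printed because DGCR8 transcripts hold both the coding message and these Microprocessor substrates, with the seed (bases 2 to 8, which pair with target mRNAs) in capitals:
miR-3618: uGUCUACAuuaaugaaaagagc
miR-1306-5p: cCACCUCCccugcaaacgucca
miR-1306-3p: aCGUUGGCucugguggug
Both hairpin genes are listed at 0 FPKM in all 6 libraries. A polyA library counted per gene does not measure mature miRNAs, and reads that fall on a hairpin also fall on the DGCR8 exon, so these zeros say nothing of the miRNAs. The hairpin gene MIR3173, which lies in an intron of DICER1, is listed at 0 as well.

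The export gene did not pass the threshold. XPO5 measured 20.0, 17.5 and 19.0 FPKM in the siC libraries and 19.9, 18.4 and 19.6 FPKM in the siMSI1 libraries. The groups overlapped fully, with a log2 fold change of 0.04 (95% confidence interval from -0.14 to 0.21, adjusted p = 0.77 from limma). POLR1C, a subunit of RNA polymerases I and III on the opposite strand, overlaps XPO5 and rose (log2 fold change 0.37, adjusted p = 0.0070 from limma). The libraries were made strand-specific, but whether reads were counted by strand is not given in the sources used here, so reads shared between these genes cannot be told apart. The same holds for DGCR8 and TRMT2A, which overlap on opposite strands.

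For both genes of the cytoplasmic step all siMSI1 values lay above all siC values, but neither passed the threshold. DICER1 measured 4.64, 4.98 and 3.79 FPKM in the siC libraries and 5.92, 5.75 and 5.05 FPKM in the siMSI1 libraries. The lowest siMSI1 library was just above the highest siC library, and replicate 3 was the lowest of its group in both. The log2 fold change was 0.32 (95% confidence interval from 0.03 to 0.60, adjusted p = 0.096 from limma). TARBP2, the double-stranded RNA-binding partner of DICER1, measured 20.5, 20.2 and 21.7 FPKM in the siC libraries and 22.7, 24.1 and 27.2 FPKM in the siMSI1 libraries. These groups did not overlap either, and the spread in siMSI1 was the larger one. The log2 fold change was 0.24 (interval from 0.05 to 0.43, adjusted p = 0.066). The log2 ratio of DICER1 to TARBP2 was -2.23 ± 0.257 in siC and -2.14 ± 0.254 in siMSI1 (SD, n = 3 each; exact permutation test, two-sided, p = 0.6). PRKRA (PACT), the other double-stranded RNA-binding partner of DICER1, was at 20.1 FPKM in siC and 16.9 FPKM in siMSI1 on average (log2 fold change -0.25, adjusted p = 0.022 from limma), and was chosen for mention after its values were seen.

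Of the 4 Argonaute mRNAs, AGO4 passed the threshold and AGO1, AGO2 and AGO3 did not. AGO4, on the plus strand of chromosome 1 of GRCh38 from 35808016 to 35857890, measured 1.46, 1.57 and 1.55 FPKM in the siC libraries and 2.47, 2.28 and 2.28 FPKM in the siMSI1 libraries. Every siMSI1 library was above every siC library, and the gap between the groups was wider than the range within either. The log2 fold change was 0.59 (standard error 0.12, 95% confidence interval from 0.32 to 0.86, adjusted p = 0.0096 from limma), on 159 to 265 reads per library. The call lay just inside the threshold, and it was lost when any 1 library was left out (adjusted p from 0.019 to 0.046, log2 fold change from 0.55 to 0.61).

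AGO2, the Argonaute that can itself cut a fully paired target and the one the study immunoprecipitated, measured 3.69, 4.24 and 3.89 FPKM in the siC libraries and 3.29, 3.13 and 2.67 FPKM in the siMSI1 libraries. No siMSI1 library reached the lowest siC library, and the mean was at 76.9% of the siC mean. The log2 fold change was -0.37 (95% confidence interval from -0.63 to -0.11), which did not pass the threshold (adjusted p = 0.047 from limma). AGO1 measured 6.35, 6.12 and 5.79 FPKM in the siC libraries and 5.24, 5.48 and 5.48 FPKM in the siMSI1 libraries. The groups did not overlap, but the log2 fold change of -0.17 had an interval from -0.35 to 0.01 (adjusted p = 0.15). AGO3 measured 0.978, 1.12 and 1.07 FPKM in the siC libraries and 1.22, 1.07 and 1.07 FPKM in the siMSI1 libraries, with overlapping groups and a log2 fold change of 0.08 (interval from -0.30 to 0.46, adjusted p = 0.76).

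AGO4, AGO1 and AGO3 lie next to each other in this order on the plus strand of chromosome 1. On GRCh38 (GENCODE release 44), 11917 bases separate AGO4 from AGO1 (35869808 to 35930532), and 185 bases separate AGO1 from AGO3 (35930718 to 36072500). In siMSI1 the 3 neighbours stood at 154% (AGO4), 88.7% (AGO1) and 106% (AGO3) of the siC mean, and AGO2 lies on another chromosome. GENCODE lists no gene that overlaps AGO4.

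The Argonaute mRNA pool was also described by the share of each gene. FPKM is scaled to gene length, so paralogs can be set side by side, although the deposited length is that of all annotated exons of a gene and long 3′UTRs that are not used would lower the level. The summed level of AGO1 to AGO4 was 12.6 ± 0.391 FPKM in siC and 11.9 ± 0.367 FPKM in siMSI1 (SD, n = 3 each). Within it, AGO4 took 11.7%, 12.0% and 12.6% in siC and 20.3%, 19.1% and 19.8% in siMSI1. The shares of AGO4 did not overlap, and their difference of 7.61 percentage points exceeded the SD of either group (0.461 and 0.610 points). As a share of recovered reads, which are not scaled to gene length, the difference was 4.26 points for AGO4, 2.1 points for AGO3 in place of 1.05, and -1.04 points for AGO1 in place of -2.86. AGO2 took 29.6%, 32.5% and 31.6% in siC and 26.9%, 26.2% and 23.2% in siMSI1, a difference of -5.79 points, also without overlap. AGO1 held the largest share in each library, from 46.9% to 50.9% with the control siRNA and from 42.9% to 47.6% after knockdown, with overlap (exact permutation test, two-sided, p = 0.3). AGO3 was at 8.37% ± 0.463 in siC and 9.41% ± 0.507 in siMSI1 (SD, n = 3 each) and their values did not overlap. For AGO2, AGO3 and AGO4 the exact permutation test gave p = 0.1 (two-sided), the smallest p that 3 libraries against 3 allow, and 0.175 when adjusted over the 7 shares and ratios tested. The shares of 1 library add up to the whole, so these are not independent.

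**Figure D2:**
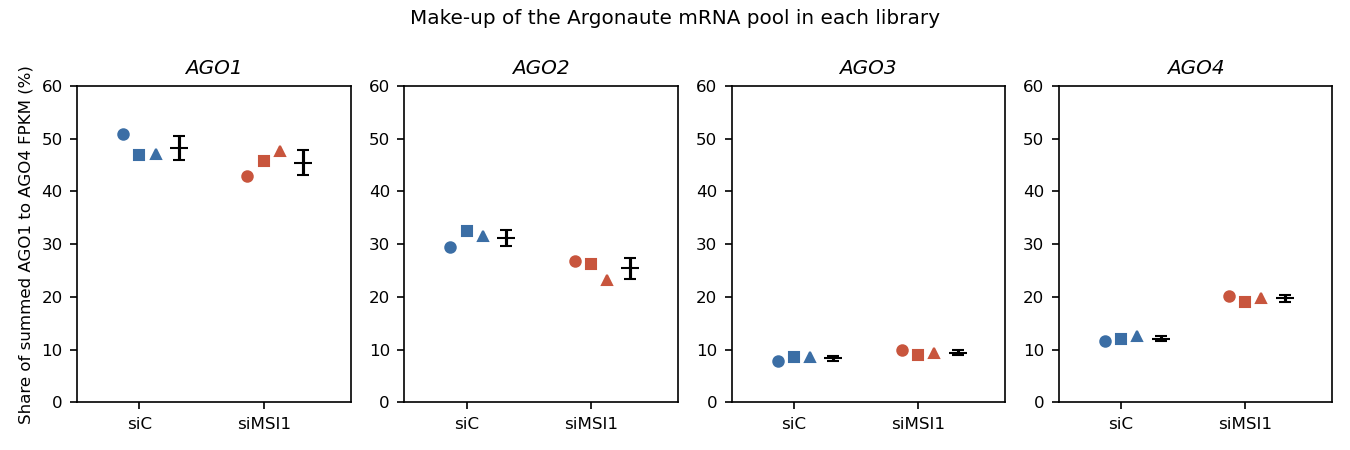
Share of each Argonaute gene in the summed FPKM of AGO1 to AGO4 (percent, vertical axis) in the 3 siC (blue) and 3 siMSI1 (red) libraries, with circles, squares and triangles for replicates 1, 2 and 3 and the black bar for mean and SD. The share of AGO4 is 12.1% on average in siC and 19.7% in siMSI1, and that of AGO2 is 31.2% and 25.4%.

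The GW182 scaffolds bind Argonaute through glycine-tryptophan repeats. TNRC6A measured 5.14, 5.62 and 5.06 FPKM in the siC libraries and 7.19, 6.98 and 6.09 FPKM in the siMSI1 libraries. All siMSI1 libraries were above all siC libraries, at 128% of the siC mean. The log2 fold change of 0.35 (95% confidence interval from 0.13 to 0.57) did not pass the threshold (adjusted p = 0.031 from limma). Of its paralogs, TNRC6B was at 126% of the siC mean (log2 fold change 0.33, adjusted p = 0.077) and TNRC6C at 93.6% (-0.09, adjusted p = 0.68). The 3 scaffolds summed to 9.04 ± 0.582 FPKM in siC and 11.1 ± 0.786 FPKM in siMSI1 (SD, n = 3 each). TNRC6A took 58.3% ± 1.18 of this sum in siC and 60.9% ± 1.09 in siMSI1 (exact permutation test, two-sided, p = 0.1, adjusted 0.175).

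**Figure D3:**
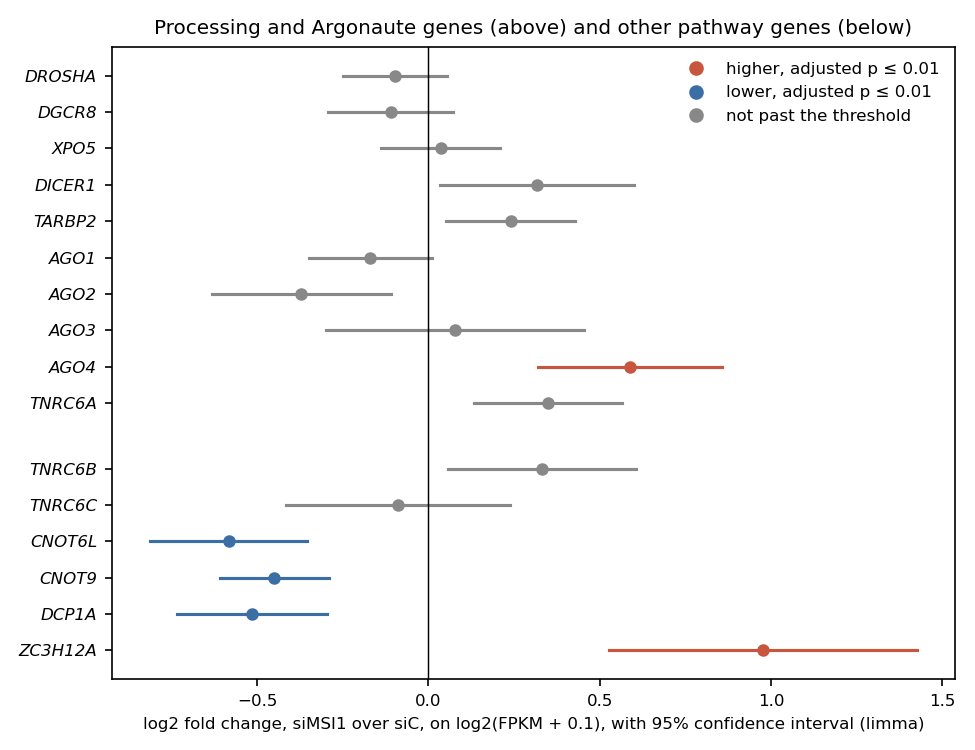
log2 fold change of siMSI1 over siC (horizontal axis, on log2(FPKM + 0.1)) with its 95% confidence interval from limma, for the 10 genes (above) and, below, the TNRC6A paralogs and the pathway genes past the threshold. Red and blue points passed an adjusted p of 0.01, higher and lower, and grey points did not. AGO4 is the only coloured point among the 10.

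The levels of the 10 genes spanned from 1.05 FPKM for AGO3 to 20.8 FPKM for TARBP2 in siC. From high to low, the order in siC was TARBP2, XPO5, DROSHA, DGCR8, AGO1, TNRC6A, DICER1, AGO2, AGO4 and AGO3. Of these neighbours, DICER1 and AGO2 overlapped in their values and the others did not. In siMSI1 the order was the same except that TNRC6A and DICER1 stood above AGO1, and there the values of DICER1 and AGO1 overlapped. By these per-length levels, the mRNAs of the nuclear and export steps and TARBP2 were above those of every Argonaute in both groups. Long 3′UTRs that are not used would lower the levels of the Argonautes here too. In reads, which are not scaled to length, AGO1 had 997 to 1537 per library. DGCR8 had 901 to 1213, TARBP2 1256 to 1595, DROSHA 1480 to 2368 and XPO5 2052 to 2691.

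The 3′UTRs of the 10 genes (canonical transcripts of GENCODE release 44) differed widely in length, from 283 bases in TARBP2 to 16755 bases in AGO3, with 10925 bases in AGO1 and 11888 in AGO2. They were searched on the sense strand for seed matches to miR-27b-3p and miR-143-3p, which the study linked to CD44, and to miR-103a-3p and miR-107, which share a seed and are known to target DICER1. A match was a 7-mer paired with bases 2 to 8, or with bases 2 to 7 followed by an A, and a stretch that met both (an 8-mer) was counted once. The words searched were ACUGUGA and CUGUGAA for miR-27b-3p, UCAUCUC and CAUCUCA for miR-143-3p, and AUGCUGC and UGCUGCA for miR-103a-3p and miR-107. The mature miRNAs are given as in RefSeq (GRCh38.p14), with the seed in capitals, to show the words that the sites mirror:
miR-27b-3p: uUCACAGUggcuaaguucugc
miR-143-3p: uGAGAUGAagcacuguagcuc
miR-103a-3p: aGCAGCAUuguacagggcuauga
miR-107: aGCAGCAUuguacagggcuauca

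DICER1 held 6 matches to miR-103a-3p and miR-107 in a 3′UTR of 4270 bases, 4 of them 8-mers, and none to miR-27b-3p or miR-143-3p. Of the 573 tested genes with a 3′UTR within 10% of that length, 48.7% had at least 1 match of any kind to miR-103a-3p and miR-107. How many of them had 6 matches, or 8-mers, was not counted. The 8-mers are printed 5′ to 3′ with 10 bases on each side and the match in capitals, all on the minus strand of chromosome 14 (GRCh38):
DICER1, chr14:95089457-95089464: caccuaaaauAUGCUGCAgauuuuauaa
DICER1, chr14:95088856-95088863: gcuucguggaAUGCUGCAuuuauaugua
DICER1, chr14:95086381-95086388: uuaccaucacAUGCUGCAgcuguuuuuu
DICER1, chr14:95086329-95086336: uacaguaaucAUGCUGCAgaaauuugca
AGO1 held 3 matches to miR-143-3p, each an 8-mer with the same core as the words above. They are shown because each is an 8-mer. Of the neighbours of AGO1 on chromosome 1, AGO4 held none to miR-143-3p. AGO3 held 2 in 16755 bases, neither an 8-mer. Whether such matches bear on the levels was not tested. Of the 69 tested genes with a 3′UTR of like length, 82.6% had at least 1 match of any kind to miR-143-3p, so having a match is common at this length. How many of them had 3 matches, or 8-mers, was not counted:
AGO1, chr1:35923453-35923460: gguagaaaaaUCAUCUCAaacuagccaa
AGO1, chr1:35925535-35925542: uucauuuuugUCAUCUCAgggucauggc
AGO1, chr1:35927591-35927598: uagaaaugggUCAUCUCAcuccugucau
AGO4, with 4285 bases of 3′UTR, held none to miR-27b-3p or miR-143-3p, which 60.4% and 50.9% of the 568 tested genes of like length had. It held a pair of matches to miR-103a-3p and miR-107:
AGO4, chr1:35854424-35854430: ugcccauuuuAUGCUGCugugugguuu
AGO4, chr1:35854768-35854775: acaaugagugAUGCUGCAacuugcaaau
Of the 10 genes, XPO5, AGO2 and AGO3 held matches to both miRNAs linked to CD44. XPO5, whose level did not pass the threshold, held 1 match to each, on the minus strand of chromosome 6. Of the 789 tested genes of like length, 18.6% had a match to miR-143-3p and 28.5% had one to miR-27b-3p. The first stretch printed matches miR-143-3p and the other miR-27b-3p:
XPO5, chr6:43523825-43523831: gccuuucuugUCAUCUCuucuuucccu
XPO5, chr6:43522881-43522887: cacaaccuguACUGUGAguccauucua

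In all, 5 of the 10 genes had a match to miR-27b-3p (14 matches), 5 to miR-143-3p (9 matches) and 7 to miR-103a-3p and miR-107 (22 matches). AGO2 had 6 matches to miR-27b-3p, 2 to miR-143-3p and 7 to miR-103a-3p and miR-107 in 11888 bases. Of the 66 tested genes of like length, 83.3%, 90.9% and 83.3% had any. For miR-103a-3p and miR-107, AGO2 thus held more matches than the 6 of DICER1, in a longer 3′UTR. TNRC6A had 1 match to miR-143-3p and none to the others. A seed match is a word in the sequence and not a measured site, and the miRNAs themselves were not measured in these libraries. The tetramer GUAG, a word of the kind that MSI1 binds, occurred 1.96 to 3.66 times per 1000 bases of 3′UTR in 9 of the 10 genes and not at all in the short 3′UTR of TARBP2. The median over tested genes was 2.32 per 1000 bases, and AGO4 had 2.1.

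**Figure D4:**
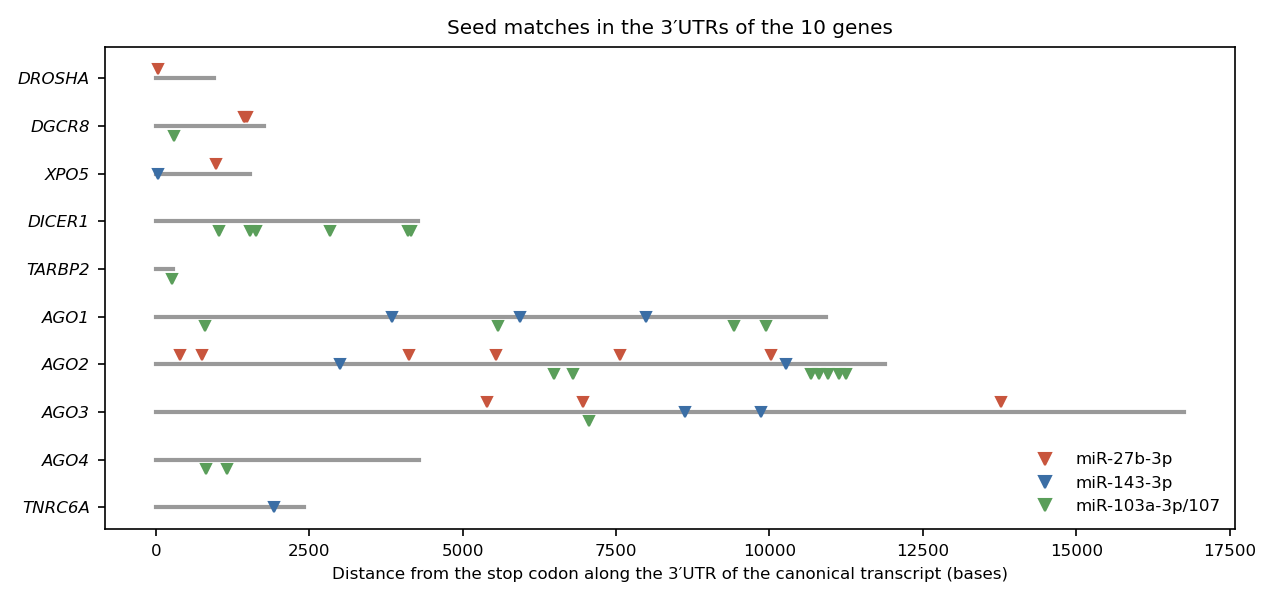
Seed matches (triangles) along the 3′UTR of each gene (grey line, to scale), by distance from the stop codon in bases (horizontal axis), for miR-27b-3p (red), miR-143-3p (blue) and miR-103a-3p with miR-107 (green). DICER1 holds 6 green triangles and none of the other colours, and AGO4 holds 2 green ones.

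Other genes of the pathway were taken from 4 lists with 48 genes, of which 46 were tested. Past the threshold were 4 of these, 1 higher and 3 lower, a share not above the 11.0% of all tested genes, and the median log2 fold change was -0.07. The 11 cofactors of processing had none past the threshold by limma, 4 at an unadjusted p under 0.05, and 0 by limma's voom on the recovered reads. Of all 15069 tested genes these counts were 1655, 5765 and 2855, and with 11 genes the list says little. Their log2 fold changes lay between -0.25 and 0.34. The most abundant of them, ILF2, was at 165 FPKM in siC and 177 FPKM in siMSI1 (log2 fold change 0.10, adjusted p = 0.25 from limma).

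The list of silencing effectors downstream of TNRC6A, enzymes and other proteins, had 3 of 25 tested genes past the threshold, all lower in siMSI1. This share was close to the 11.0% of all tested genes called (5.83% lower). The median log2 fold change of the 25 was -0.11, with 18 below and 7 above 0, against a median of 0.00 over all tested genes. CNOT9, the CCR4-NOT subunit that GW182 proteins dock on, fell from 20.8 ± 0.968 FPKM to 15.2 ± 0.679 FPKM (SD over 3 libraries). The fitted log2 fold change was -0.45, with a standard error of 0.068 and an adjusted p of 0.0034 from limma. CNOT6L, a catalytic deadenylase of the same complex, fell from 3.43 ± 0.203 to 2.25 ± 0.0485 FPKM (-0.58, standard error 0.099, adjusted p = 0.0053). DCP1A, a co-activator of decapping, fell from 5.88 ± 0.544 to 4.08 ± 0.156 FPKM (-0.51, standard error 0.094, adjusted p = 0.0073). For each of the 3 genes the groups did not overlap.

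With 1 library left out in turn, CNOT9 passed the threshold only without siMSI1 replicate 3, and CNOT6L and DCP1A in no case. The adjusted p was 0.0034 to 0.019 for CNOT9, 0.011 to 0.027 for CNOT6L and 0.010 to 0.029 for DCP1A. CNOT6, the paralog of CNOT6L, was at 6.92 FPKM in siC and 9.65 FPKM in siMSI1 on average (log2 fold change 0.48, adjusted p = 0.023 from limma), and was chosen for mention after its values were seen. PABPC1, the poly(A)-binding protein and the most abundant gene of this list, was at 79.6 FPKM in siC and 89.6 FPKM in siMSI1 (0.17, adjusted p = 0.072).

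Among 10 genes of precursor modification and miRNA turnover, 8 were tested and 1 passed the threshold, close to the 11.0% of all tested genes. ZC3H12A, an endoribonuclease that cuts precursor miRNAs and inflammatory mRNAs, was higher in siMSI1, at 2.08 ± 0.259 FPKM against 1.02 ± 0.231 FPKM in siC (SD, n = 3 each; log2 fold change 0.98, adjusted p = 0.0099 from limma). This rests on 35 to 108 reads per library, and without any 1 library its adjusted p was 0.013 to 0.039. KHSRP, an RNA-binding cofactor of DROSHA and DICER1 and the most abundant gene of this list, had overlapping groups (-0.15, adjusted p = 0.29). LIN28A and LIN28B, which block the processing of let-7, had at most 7 reads in any library, too few to detect a change. The PIWI genes, the germline branch of the Argonaute family, reached no more than 5 reads per library, and none was tested. Of 11 interferon-stimulated genes tested, a list that can respond to transfected RNA, 1 was called, OAS1, which was higher in siMSI1 (log2 fold change 0.92, adjusted p = 0.0086 from limma), and the median of the list was 0.03. This share is also close to the 11.0% of all tested genes, and IFIT3 of the same list had a log2 fold change of -0.45 without overlap (adjusted p = 0.031 from limma). Its part in the values of the 10 genes was not tested.

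**Figure D5:**
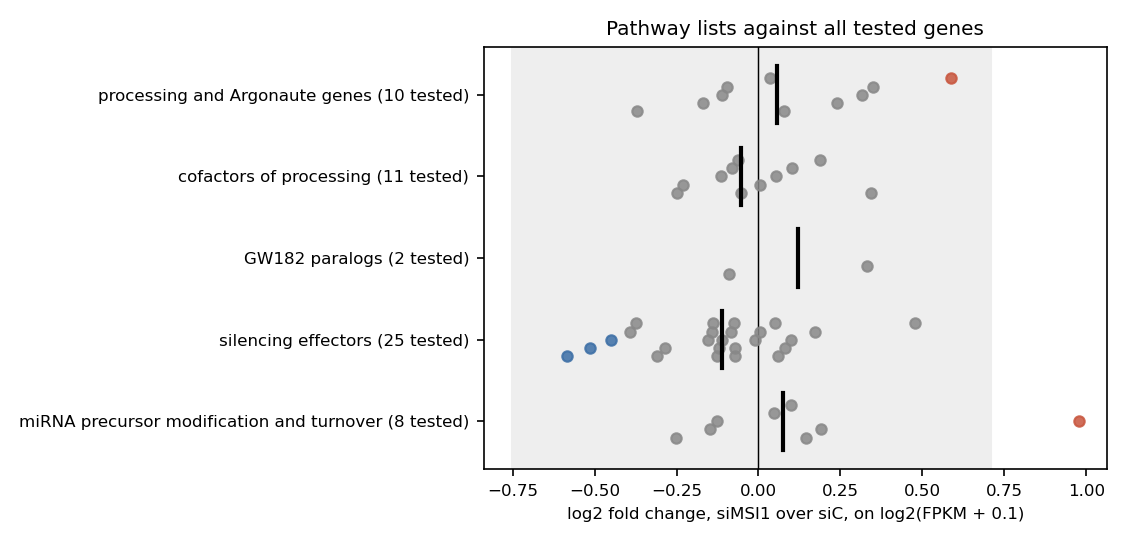
log2 fold change of siMSI1 over siC (horizontal axis, on log2(FPKM + 0.1)) for each tested gene of the 5 lists (points), with the median of each list (black bar) and the range from the 5th to the 95th percentile of all tested genes (grey band, from -0.75 to 0.71). Red and blue points passed an adjusted p of 0.01, higher and lower. All points but ZC3H12A lie inside the grey band.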

How the data were processed

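The mRNA-seq libraries (3 siC, 3 siMSI1) were grouped by their labels. The authors clipped reads with Cutadapt 1.14, aligned them to GRCh38 with HISAT2 2.1.0, summarized them with featureCounts 1.5.3 on Ensembl release 89, and deposited FPKM values with TMM-scaled library sizes, gene lengths and their own edgeR comparison (log2 fold changes, p-values, false discovery rates), which was not used. FPKM times length gave whole reads for 100% of values above 0 (tolerance 1e-04).

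limma 3.58.1 (R 4.3.3; lmFit, eBayes with trend and robust) was fitted to log2(FPKM + 0.1). The filter, a mean of 0.5 FPKM over the 6 libraries, left 15069 genes. Fold changes on this scale understate those of low genes. Adjusted p is Benjamini-Hochberg over all tested genes. Shares and ratios were tested by exact permutation (SciPy 1.17.1). Sites were searched in GENCODE release 44 transcripts. Only the main limma fit was tried on simulated data. The genes named were MSI1, the 10 genes, TNRC6B and TNRC6C, and from each list the genes past the threshold and the most abundant other gene. TUT4, TUT7 and TENT2 were matched by older symbols. The genes, lists and tests were chosen with earlier results of these data known.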

Additional observations from a re-analysis of the deposited data

How the results depend on the processing

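MSI1 was lower under all alternatives. AGO4 was higher under all of them, and its adjusted p (limma) was 1.1e-05 to 0.046. It was called in 9 of 18 alternatives at the threshold of 0.01. The log2 fold changes of the other 9 genes kept their sign, except that of XPO5, which was -0.018 without siC replicate 2 and up to 0.080 without another library.

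Of all tested genes, 1655 were called, 792 with no filter on low genes, 847 with plain variance moderation, 3787 at an adjusted p of 0.05, 2855 with voom on the recovered reads, 3240 with a GC correction, and 528 to 1603 with 1 library left out (528 without siC replicate 1). Of the 10 genes, 0 were called with no filter and 0 with each library left out (3 to 5 at an unadjusted p under 0.05), 3 at an adjusted p of 0.05, 3 with voom (AGO2, AGO4, TNRC6A) and 2 with the GC correction (AGO4, TARBP2). Of the 46 other pathway genes tested, 4 were called, 0 with no filter, 1 with plain moderation, 11 at an adjusted p of 0.05, 8 with voom, 10 with the GC correction, and 0 to 2 with 1 library left out. The cause was not tested. The GC corrections were chosen after the data were seen.

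With a replicate block, 0 of the 10 genes were called (5 at an unadjusted p under 0.05) and 7 of the other pathway genes. With a replicate block in voom, 5 of the 10 (AGO2, AGO4, DICER1, TARBP2, TNRC6A), 16 of the others and 5072 of all genes were called. With the GC correction and the replicate block, 0, 7 and 2603 were called. The block alone gave 2250 calls over all genes. Deviations from the group means correlated at -0.066, 0.078 and 0.083 between same-numbered libraries, and not every library correlated best with its own number. The labels do not say whether same-numbered libraries share a transfection or batch, and such weak correlations cannot decide it.

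The differences in shares kept their sign in all alternatives run on them (reads in place of FPKM, the block and each library left out). The log2 ratio of DROSHA to DGCR8 differed by -0.038 to 0.095 and that of DICER1 to TARBP2 by -0.062 to 0.22 with 1 library left out, turning negative without siC replicate 1 (-0.038), siC replicate 3 (-0.016) or siMSI1 replicate 1 (-0.026) for the former, and without siC replicate 3 (-0.062) or siMSI1 replicate 1 (-0.021) for the latter. With 159 to 428 reads per library on AGO3 and AGO4, counting error limits their precision most among the 10 genes.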
